A study of Mus musculus with 12 samples.

Results

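The miR-26 and miR-30 families were followed in the early mouse endoderm and pancreas. Their members were all entries of the miRNA count table named miR-26a, miR-26b or miR-30a to miR-30f, as mature arms or precursors, picked by name with no threshold on a measured value. They made up 24 of 1053 entries, with 7 entries of the miR-26 family and 17 of the miR-30 family. By kind, 7 were mature 5p arms, 8 were mature 3p arms and 9 were precursors. Both families were present at every stage, and no tested member passed the main test (edgeR) for a change between stages. Some other ways of processing called members in some comparisons, such as miR-30e-5p as higher at E9.5 than at E8.5 with DESeq2.

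A miRNA is cut from a hairpin precursor into 5p and 3p arms, of which one usually enters the silencing complex. The complex finds its target mRNAs mainly through the seed, the bases near the 5′ end of the arm, so arms with the same seed share many targets. The miR-26 genes lie in genes of small phosphatases that act on RNA polymerase II, and miR-26 is known to repress the TET enzymes of DNA demethylation in differentiating pancreatic cells. The miR-30 family is known to repress mesenchymal mRNAs such as vimentin in cultured fetal islet cells, and both families have been linked to maturation of the endocrine pancreas.

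The sequences of the abundant 5p arms are shown because they define the families, with the seed (bases 2 to 8) in capitals. They come from RefSeq (GRCm38.p6), where 11 of the 15 mature members and 7 of the 9 precursors were matched. The unmatched members were the arms and precursors of miR-30b and miR-30d.
miR-26a-5p: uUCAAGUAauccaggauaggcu
miR-26b-5p: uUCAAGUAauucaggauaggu
miR-30a-5p: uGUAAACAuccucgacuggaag
miR-30e-5p: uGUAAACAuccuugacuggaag
miR-30c-5p: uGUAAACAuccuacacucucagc
The seed was the same among the 5p arms printed for each family, and miR-30b-5p and miR-30d-5p could not be compared. Counted from the 5′ end, miR-26a-5p and miR-26b-5p differed by C11U and C21U over the 21 bases they share. The change C13U was the single difference between miR-30a-5p and miR-30e-5p, while miR-30c-5p differed from miR-30a-5p at 5 of 22 positions, all outside the seed. The 3p arms of miR-30a and miR-30e were also nearly identical, with the single difference G18A and a shared seed.
miR-30a-3p: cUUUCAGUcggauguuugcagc
miR-30e-3p: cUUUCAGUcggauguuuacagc
A pair of arms was made from several loci, which the counts of the mature arm cannot separate. The precursors mir-26a-1 (chr9:119031796-119031885, plus strand) and mir-26a-2 (chr10:126995530-126995613, plus strand) both held the whole of miR-26a-5p within 25 shared bases. The precursors mir-30c-1 (chr4:120769534-120769622, minus strand) and mir-30c-2 (chr1:23291701-23291784, plus strand) both held miR-30c-5p within 28 shared bases. In the GENCODE annotation of the same build, mir-26a-1 lay in an intron of Ctdspl, mir-26a-2 overlapped an annotated exon of Ctdsp2, and mir-26b (chr1:74394310-74394394, plus strand) lay in an intron of Ctdsp1. The precursors mir-30c-1 and mir-30e (chr4:120772606-120772697, minus strand) lay 2983 bases apart in introns of Nfyc, which encodes a subunit of a CCAAT-binding factor. The precursor mir-30a (chr1:23272269-23272339, plus strand) overlapped no other gene and lay 19361 bases from mir-30c-2, which overlapped an exon of the long noncoding RNA Gm27028.

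Small RNA was sequenced from 12 libraries of sorted tdTomato-positive mouse cells, with 3 libraries at each of 4 stages, named by embryonic day from E8.5 to E11.5. The E8.5 cells were endoderm of whole embryos with the genotype Foxa2-CreER, tdtomato+, in which Cre acts from the Foxa2 locus after tamoxifen, given to the dam at E6.5. The E9.5, E10.5 and E11.5 cells came from the trunk of embryos with the genotype Pdx1-Cre, tdtomato+, and a Pdx1-driven Cre also marks duodenal cells. Per the study's methods the tdTomato reporter sat at Rosa26 behind a stop cassette, and the males of the lineage-tracing crosses carried 1 mir-302 allele replaced by eGFP, so it is not known which embryos carried it. Cre driver, dissected region and stage changed together between E8.5 and E9.5 and cannot be told apart, nor can stage and the number in the library names, which differed between stages. No label says that the libraries of a stage came from separate embryos or litters, so the spread and the p-values describe these samples only. Total counts ran from 53996 to 1103383, the E9.5 libraries being the smallest (53996 to 80075), and 3 counts stood for up to 75.9 CPM (a count taken relative to its library total, with the TMM factors of edgeR) at E9.5 but at most 25.8 CPM elsewhere. At E9.5 the precursor entries mir-6236 and mir-6240 took 12.7% to 28.3% of counts, against at most 3.10% at the other stages.

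Both families were abundant at every stage. The 5p arms of miR-26 together took 1.40% to 3.29% of the counts of a library and those of miR-30 took 2.43% to 4.26%, while the library totals spanned 20.4-fold. Summed miR-26 5p arms stood at 24101 ± 407 CPM in E8.5 (SD, n = 3 libraries, as for all stage values here), 19619.7 ± 3379 in E9.5, 21772 ± 1873 in E10.5 and 30016 ± 4177 in E11.5. Summed miR-30 5p arms stood at 29879 ± 7947, 32361 ± 3696, 36651 ± 2653 and 38312 ± 4335 CPM. The order of the stages depended on the scaling for both sums. With the size factors of DESeq2 (RLE) in place of TMM, E9.5 had the highest mean, at 27325 CPM for miR-26 and 45298 CPM for miR-30.

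The ratio of miR-30 to miR-26 5p counts within a library does not depend on scaling. It was 1.08, 1.64 and 1.00 in E8.5 (replicates 1 to 3), 1.53, 1.71 and 1.74 in E9.5, 1.82, 1.55 and 1.70 in E10.5 and 1.37, 1.13 and 1.36 in E11.5. The miR-30 arms held more counts than the miR-26 arms in all 12 libraries. The E11.5 ratios lay below those of E10.5 and E9.5 without overlap, whereas the E8.5 ratios overlapped those of the other 3 stages.

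In bulk samples, fewer cells of a type and less RNA per cell cannot be told apart, and this holds for each level that follows. The arm miR-26a-5p (mmu-miR-26a-5p in the table) was the most abundant member and ranked 6, 13, 9 and 9 among 633 mature arms from E8.5 to E11.5. Its level was 20156, 18024 and 19527 CPM in the E8.5 libraries, 14518, 13947 and 18055 in the E9.5 libraries, 18225, 18682 and 17860.0 in the E10.5 libraries and 19829.5, 26689.6 and 24125 in the E11.5 libraries. These rested on 11655, 6977 and 13506 counts in E8.5, 894, 1306 and 714 in E9.5, 4788, 2175 and 4584 in E10.5 and 8699, 29179 and 20061 in E11.5. With TMM scaling the stage means ran from E11.5 through E8.5 and E10.5 to E9.5. Of neighbours in this order none was apart by all its libraries, while the E11.5 libraries lay above those of E10.5 and E9.5. The order depended on the scaling, and with RLE the mean of this arm was highest at E9.5 and lowest at E8.5.

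The arm miR-26b-5p (mmu-miR-26b-5p) held 20.2% of the counts of the 5p arms of its family over all libraries. Its level was 4363, 5683 and 4551 CPM in E8.5, 8704, 2574 and 1062 in E9.5, 3361, 5050.5 and 2139 in E10.5 and 5453, 6495 and 7455 in E11.5. Its counts were 2523, 2200 and 3148 in E8.5, 536, 241 and 42 in E9.5, 883, 588 and 549 in E10.5 and 2392, 7101 and 6199 in E11.5. The E9.5 libraries covered the range of the other stages, and replicate 3 of E9.5, the smallest library, had the lowest value of the 12. The E11.5 libraries lay above the E10.5 libraries without overlap.

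The arm miR-30d-5p (mmu-miR-30d-5p) led the miR-30 family, with 42.4% of its 5p counts over all libraries. Its level was 10947, 15464 and 10645 CPM in E8.5, 7908, 5905 and 12669 in E9.5, 14373, 11346 and 14844 in E10.5 and 16606, 16324 and 19357 in E11.5. Its counts were 6330, 5986 and 7363 in E8.5, 487, 553 and 501 in E9.5, 3776, 1321 and 3810 in E10.5 and 7285, 17846 and 16096 in E11.5. All 3 E11.5 libraries lay above the libraries of the other stages. The E8.5, E9.5 and E10.5 libraries overlapped each other.

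The arm miR-30e-5p (mmu-miR-30e-5p) had its highest mean at E9.5. Its level was 4837, 7541 and 4235 CPM in E8.5, 9451, 7764 and 12947 in E9.5, 10072, 9414 and 7675 in E10.5 and 5874, 6486 and 7855 in E11.5. The counts behind these were 2797, 2919 and 2929 in E8.5, 582, 727 and 512 in E9.5, 2646, 1096 and 1970 in E10.5 and 2577, 7091 and 6532 in E11.5. Every E9.5 and E10.5 library lay above every E8.5 library, and the E11.5 libraries overlapped those of E8.5 and, at their upper end, those of E9.5 and E10.5.

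The arm miR-30a-5p (mmu-miR-30a-5p) differs from miR-30e-5p in 1 base. Its level was 6925, 10666 and 6424 CPM in E8.5, 10767, 9472 and 6499 in E9.5, 9893, 9903 and 8673 in E10.5 and 8528, 9678 and 9705 in E11.5. Its counts were 4004, 4129 and 4443 in E8.5, 663, 887 and 257 in E9.5, 2599, 1153 and 2226 in E10.5 and 3741, 10581 and 8070 in E11.5. The libraries of all 4 stages overlapped.

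The arm miR-30c-5p (mmu-miR-30c-5p), made from both mir-30c precursors, stood at 3544, 5043 and 2595 CPM in E8.5, 7373, 4838 and 1011 in E9.5, 3917, 5239 and 2338 in E10.5 and 3472, 4851 and 5798 in E11.5. Its counts were 2049, 1952 and 1795 in E8.5, 454, 453 and 40 in E9.5, 1029, 610 and 600 in E10.5 and 1523, 5304 and 4821 in E11.5. The stages overlapped throughout, and the lowest value again lay in replicate 3 of E9.5.

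The scarcest of the 7 was miR-30b-5p (mmu-miR-30b-5p), with 316, 232 and 224 CPM in E8.5, 48.7, 331 and 101 in E9.5, 974, 893 and 397 in E10.5 and 59.3, 9.15 and 332 in E11.5. These values rested on counts of 183, 90 and 155 in E8.5, 3, 31 and 4 in E9.5, 256, 104 and 102 in E10.5 and 26, 10 and 276 in E11.5. The E10.5 libraries were the highest 3 of the 12. At E9.5, 1 library held 3 counts, the number taken as the floor, and the E11.5 libraries spread widely.

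**Figure D1:**
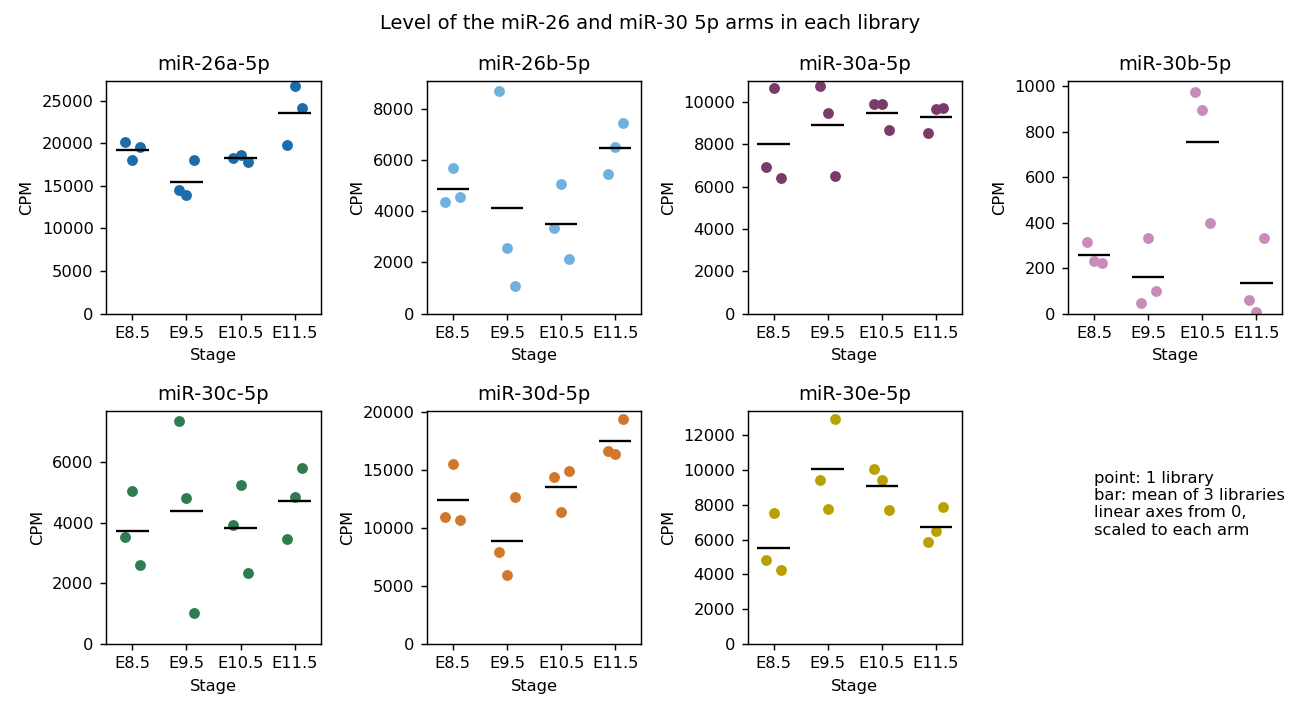
Level of each 5p arm of the miR-26 and miR-30 families in CPM (linear vertical axes from 0, scaled to each arm) at the 4 stages, with 1 point per library and a bar at the mean of 3 libraries. The miR-30d-5p points of E11.5 sit above all others, the miR-30e-5p points of E9.5 and E10.5 sit above those of E8.5, and the miR-30b-5p points of E10.5 sit at 397 to 974 CPM above the rest.

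To ask whether members changed from stage to stage, all 571 entries past the filter on low counts entered the quasi-likelihood test of edgeR, with Benjamini-Hochberg adjustment over all of them and calls at an adjusted p under 0.05. Of the 24 members, 20 were tested, and miR-26a-2-3p, miR-26b-3p, miR-30d-3p and mir-30b did not pass that filter. At E9.5 against E8.5, 0 of 20 members were called, where 5.6% of all tested entries were. The counts were 0 of 20 against 4.38% at E10.5 against E9.5, 0 of 20 against 0.35% at E11.5 against E10.5, and 0 of 20 against 11.6% at E11.5 against E8.5. At an unadjusted p under 0.05 the members numbered 2, 0, 2 and 0 in these comparisons. The median log2 fold change of the tested members was -0.34, -0.18, 0.36 and 0.18, beside -0.84, 0.17, 0.073 and -0.067 for all tested entries. The comparisons share libraries and are not independent of each other.

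Against E8.5, the fitted level of miR-30e-5p at E9.5 was higher by 0.86 on the log2 scale (SE 0.39, edgeR adjusted p = 0.224), and it was the only 5p arm whose libraries did not overlap between these stages. Non-overlapping libraries were seen for 3 of 20 members and for 34.3% of all tested entries. This value was called in 3 other ways of processing: with RLE size factors (log2 fold change 1.56, adjusted p = 0.0219), with DESeq2 (1.55, adjusted p = 0.00326) and without the entries mir-6236 and mir-6240 (1.31, adjusted p = 0.0419). These settings called 8.76%, 20.7% and 7.57% of all entries, DESeq2 among the 382 to which it gave an adjusted p. The fitted changes of miR-26a-5p (-0.31, SE 0.26, adjusted p = 0.472) and miR-30d-5p (-0.49, SE 0.33, adjusted p = 0.390) pointed down with TMM and up, at 0.36 and 0.22, with RLE, which shifted the median of all entries by 0.64. The former was called lower with counts under 10 set to 0 (-0.76, adjusted p = 0.0483) and the latter with counts divided by the second level described further on (-0.69, adjusted p = 0.0495), settings that called 6.32% and 44.3% of all entries tested in them.

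At E10.5 against E9.5, the largest fitted change of a 5p arm was that of miR-30b-5p, 2.21 on the log2 scale (SE 1.33, edgeR adjusted p = 0.367). Its libraries did not overlap, as for 2 of 20 members and 15.8% of all tested entries. Without replicate 2 of E9.5 this change was 3.16. At E11.5 against E10.5 the same arm had a fitted change of -2.50 (SE 1.33, adjusted p = 0.503), which was -4.55 without replicate 3 of E11.5. The fitted change of miR-30d-5p from E9.5 to E10.5 was 0.62 (SE 0.34, adjusted p = 0.314). It was 0.036 with RLE, 0.038 with DESeq2, 0.16 without mir-6236 and mir-6240, 0.19 with at least 10 counts in every library, and 0.19 to 0.93 with 1 library left out, the lowest without replicate 2 of E9.5 and the highest without replicate 3.

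At E11.5 against E10.5, 4 of the 7 5p arms, miR-26a-5p, miR-26b-5p, miR-30b-5p and miR-30d-5p, had libraries that did not overlap. Over all members this held for 5 of 20, and over all tested entries for 13.5%. The fitted changes were 0.37 (SE 0.26) for miR-26a-5p, 0.88 (SE 0.58) for miR-26b-5p and 0.37 (SE 0.33) for miR-30d-5p, with edgeR adjusted p = 0.657, 0.601 and 0.805. With TMM scaling these 3 arms were higher at E11.5 than at E10.5 in every library, and none passed the test. With RLE the summed miR-26 5p arms stood at 21369 ± 3917 CPM in E10.5 and 24989 ± 3907 CPM in E11.5.

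Over the whole interval from E8.5 to E11.5 the intervals of the changes were narrower for 4 of the 5p arms than for the other 3. Fitted by edgeR, miR-26a-5p stood at 1.22-fold (95% interval 0.837 to 1.79) of its E8.5 level, miR-30a-5p at 1.16-fold (95% interval 0.691 to 1.95) and miR-30e-5p at 1.22-fold (95% interval 0.699 to 2.12). For miR-30d-5p the value was 1.41-fold (95% interval 0.873 to 2.28), and this was the only member whose E11.5 libraries did not overlap those of E8.5, against 38.5% of all tested entries. The intervals were wider for miR-26b-5p, at 1.33-fold (95% interval 0.577 to 3.06), for miR-30c-5p, at 1.26-fold (95% interval 0.545 to 2.93), and for miR-30b-5p, at 0.519-fold (95% interval 0.0841 to 3.20). With limma voom in place of edgeR, miR-26a-5p and miR-30d-5p were called higher at E11.5, 2 of 20 members beside 25.7% of all tested entries. With at least 10 counts required in every library, all 6 abundant 5p arms pointed down, by log2 fold changes of -0.30 to -0.024. Without replicate 3 of E11.5 the log2 fold change of miR-30b-5p was -2.97, against -0.95 with all libraries. A doubling was outside the interval for miR-26a-5p and miR-30a-5p and inside it for the other 5 arms.

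**Figure D2:**
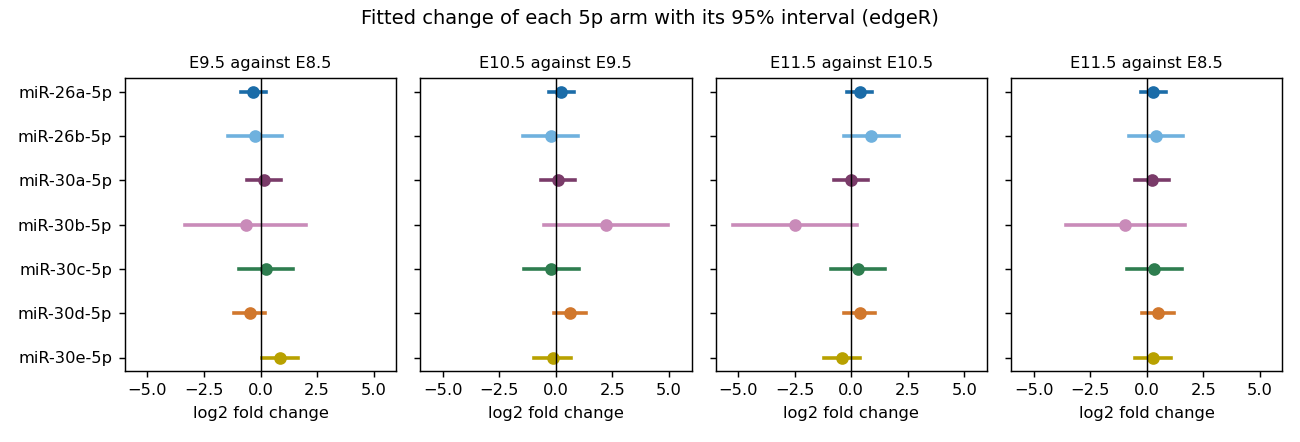
Fitted log2 fold change of each 5p arm (horizontal axis, log2 scale, point) with its 95% interval (line) in the 4 comparisons of stages. All intervals but that of miR-30e-5p at E9.5 against E8.5 include 0, and those of miR-30b-5p are the widest.

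With TMM scaling, and with each of the 4 other scalings tried, the 6 abundant 5p arms had smaller ranges of stage means than the median abundant arm, but their order depended on the scaling. Among 153 mature arms with a mean of at least 500 CPM, the highest stage mean was 3.46 times the lowest in the median with TMM (3.24 to 3.59 over the other scalings). With TMM the value for miR-30a-5p, 1.19-fold, was the smallest of the 153, and that of miR-30c-5p, 1.26-fold, was the next. With RLE these became 1.72-fold and 1.75-fold and ranked 16 and 19, while miR-26a-5p, at 1.28-fold, ranked 3. With TMM the arm miR-26a-5p, at 1.52-fold, ranked 11 from the smallest, and miR-30e-5p, miR-26b-5p and miR-30d-5p ranked 23, 25 and 36, at 1.82-fold, 1.84-fold and 1.97-fold. With RLE the range of miR-30e-5p was 2.94-fold, ranked 63, and that of miR-30d-5p was 1.32-fold, ranked 5. The arm miR-30b-5p lay below 500 CPM and was not ranked. A small range of means need not mean a small spread: within a stage the SD of log2 CPM was 0.15 for miR-26a-5p and 0.28 for miR-30a-5p but 0.87 for miR-30c-5p and 0.84 for miR-26b-5p, against a median of 0.90 over the 153 arms. The biological coefficient of variation fitted by edgeR was 0.47 to 0.62 for the 6 abundant 5p arms and 1.03 for miR-30b-5p. Its median was 1.24 over all tested entries, which were not matched to these arms in level and include scarce ones.

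**Figure D3:**
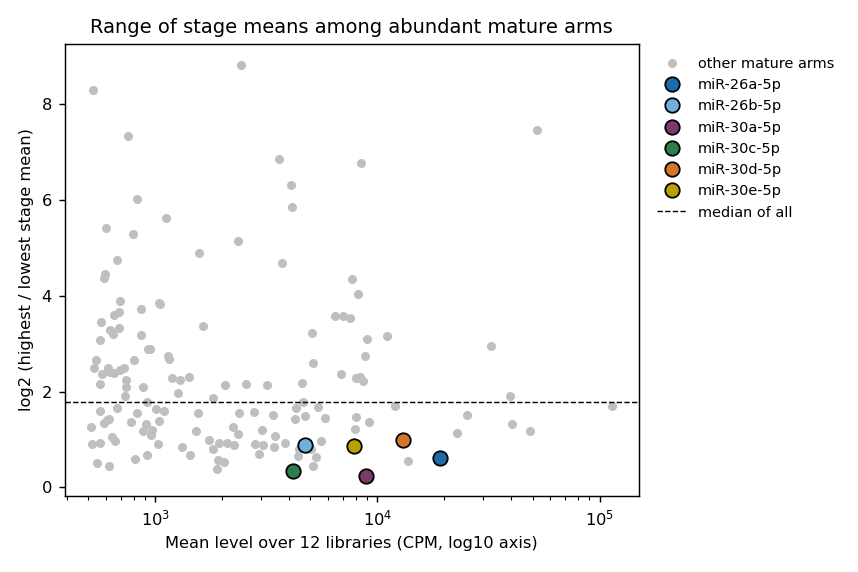
Range of the stage means, as log2 of the highest over the lowest (vertical axis), against the mean level over 12 libraries in TMM-scaled CPM (horizontal log10 axis) for 153 mature arms, with 6 members in colour and the median as a dashed line. All 6 members lie below the median, and miR-30a-5p has the smallest range of all arms with this scaling but ranks 16 with RLE.

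Within the miR-30 family the make-up of the 5p arms differed between stages. The arm miR-30e-5p held 18.4% ± 0.915 of the family's 5p counts at E8.5, 31.0% ± 6.92 in E9.5, 24.6% ± 1.74 in E10.5 and 17.5% ± 0.638 in E11.5. The arm miR-30d-5p held 41.7% ± 2.25, 27.1% ± 9.59, 37.1% ± 6.47 and 45.6% ± 2.25 at the same stages. The mean share of miR-30e-5p was highest where that of miR-30d-5p was lowest, at E9.5. Shares of 1 family sum are tied to each other, so part of this opposition is built in. The differences in share between stages were not tested. The shares of miR-30a-5p ranged between stages only from 24.4% ± 1.71 in E11.5 to 27.8% ± 7.28 in E9.5.

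**Figure D4:**
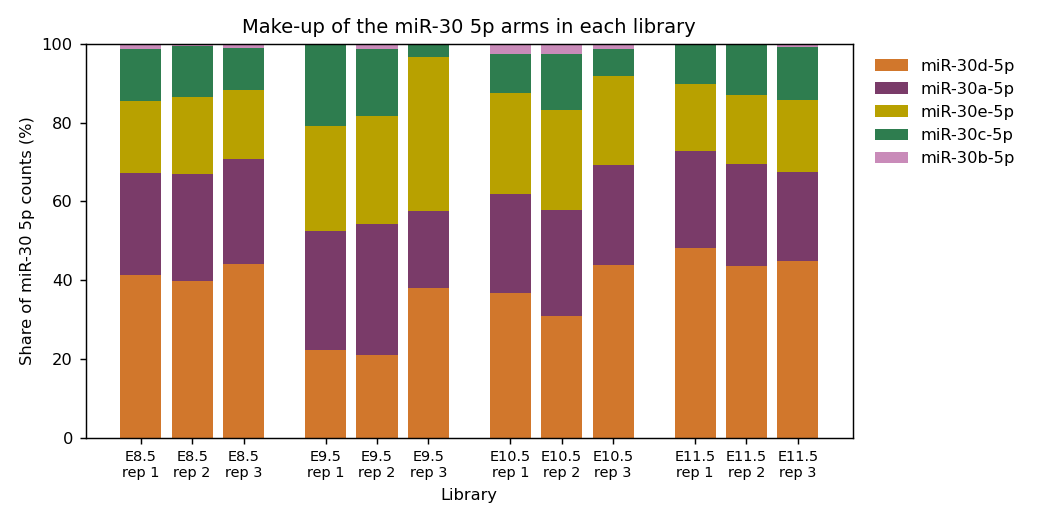
Share of each arm in the summed counts of the miR-30 5p arms (vertical axis, percent, stacked bars) in each of the 12 libraries, grouped by stage. The miR-30d-5p segment averages 41.7% at E8.5, 27.1% at E9.5 and 45.6% at E11.5, and the miR-30e-5p segment averages 18.4%, 31.0% and 17.5%.

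The ratio of miR-30d-5p to miR-30e-5p counts, which needs no scaling, was singled out after its values were seen and is given as a description. It was 2.26, 2.05 and 2.51 in the E8.5 libraries, 0.837, 0.761 and 0.979 in the E9.5 libraries, 1.43, 1.21 and 1.93 in the E10.5 libraries and 2.83, 2.52 and 2.46 in the E11.5 libraries. Every E9.5 library held more miR-30e-5p than miR-30d-5p, and every other library held less. No 2 adjacent stages overlapped in this ratio, and the E8.5 and E11.5 libraries overlapped. The ratio of miR-30a-5p to miR-30e-5p was 1.43, 1.41 and 1.52 in E8.5, 1.14, 1.22 and 0.502 in E9.5, 0.982, 1.05 and 1.13 in E10.5 and 1.45, 1.49 and 1.24 in E11.5. It was lower in every E9.5 and E10.5 library than in every E8.5 and E11.5 library.

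Such ratios were set against those of other miRNAs. Among all pairs of the 151 mature arms with a mean of at least 500 CPM and counts in every library, 39.9% had ratios that did not overlap between E8.5 and E9.5, against 3 of the 15 pairs of the 6 abundant member arms. The shares were 19.6% and 2 of 15 between E9.5 and E10.5, and 18.3% and 8 of 15 between E10.5 and E11.5. Between E8.5 and E11.5, 1 of 15 member pairs did not overlap, miR-30a-5p over miR-30d-5p, against 58.5% of all pairs. The 15 pairs are built from 6 arms and are not independent. The non-overlap of miR-30d-5p and miR-30e-5p between E8.5 and E9.5 is thus of a kind that was common in this comparison, and all 3 of these member pairs held miR-30e-5p.

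**Figure D5:**
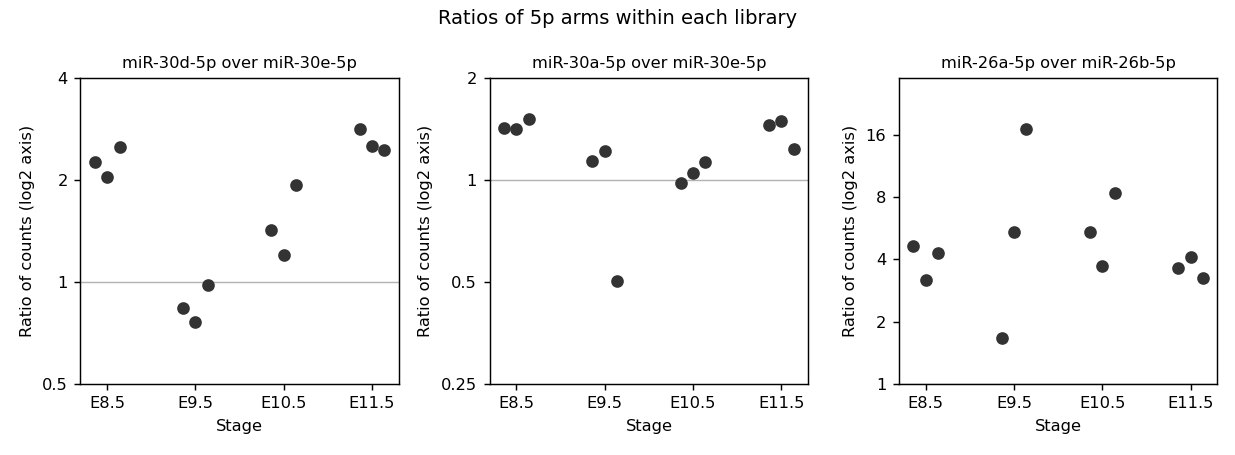
Ratios of counts of 5p arms within each library (vertical log2 axes, 1 point per library) at the 4 stages for miR-30d-5p over miR-30e-5p, miR-30a-5p over miR-30e-5p and miR-26a-5p over miR-26b-5p. The first ratio lies at 0.761 to 0.979 at E9.5 and above 1 in all other libraries, and the last spreads from 1.67 to 17 at E9.5.

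The E9.5 counts of miR-30d-5p and miR-30e-5p were also low relative to a count at which many entries of a library crowded. Entries were crowded at the lowest counts of each library and then at a further count, called its second level, of 30.2 to 123 reads. At E9.5 the counts of miR-30d-5p were 5.86, 9.61 and 8.13 times this level and those of miR-30e-5p 7.00, 12.6 and 8.30 times, whereas at E8.5 they were 87.4, 99.3 and 154 and 38.6, 48.4 and 61.2 times. The level itself was similar, at 57.5 to 83.2 reads at E9.5 and 47.9 to 72.4 reads at E8.5. Total counts were 53996 to 80075 at E9.5 and 386094 to 594224 at E8.5. Whole E9.5 libraries were thus small relative to the level, and the low multiples are not particular to these 2 arms. In replicate 3 of E9.5, miR-26b-5p and miR-30c-5p stood at 0.681 and 0.649 times the level, with 42 and 40 counts. What the second level marks was not tested. In the same library the ratio of miR-26a-5p to miR-26b-5p was 17, against 1.67 to 8.35 in the other 11, and mir-6236 and mir-6240 took 28.3% of the counts.

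The 3p arms were minor products in nearly all cases. Over all libraries the counts of the 5p arm were 2489 times those of miR-26a-2-3p, 1553 times those of miR-26b-3p and 784 times those of miR-30d-3p. The 3p arms of miR-30a and miR-30e were the most abundant, with ratios of 5p to 3p of 12.2 and 9.12, and these were the only 3p arms seen in all 12 libraries. Ratios for miR-30c-5p were 95.5 to miR-30c-1-3p and 29.1 to miR-30c-2-3p. The exception was miR-30b-3p, with 119, 0 and 190 counts at E8.5, 3, 1 and 2 at E9.5, 1, 1 and 0 at E10.5 and 30, 181 and 2 at E11.5. It exceeded miR-30b-5p in 3 libraries, replicate 3 of E8.5 and replicates 1 and 2 of E11.5, and none of the 5 tested 3p arms was called in any comparison. The largest fitted log2 fold changes of members were those of the miR-30c 3p arms. Counts of miR-30c-2-3p were 78, 191 and 254 at E8.5, 0 or 1 at E9.5 and E10.5, and 78, 104 and 1 at E11.5. Its change by edgeR was -4.69 (SE 2.17, adjusted p = 0.231) from E8.5 to E9.5 and 5.68 (SE 2.28, adjusted p = 0.368) from E10.5 to E11.5. For miR-30c-1-3p the latter was 7.43 (SE 3.17, adjusted p = 0.408), with 69, 0 and 2 counts at E11.5.

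Precursor entries took part of the reads of both families. They held 0.625% to 11.6% of the counts of the miR-26 entries and 6.79% to 15.9% of those of the miR-30 entries across the 12 libraries. The precursors mir-26a-1 and mir-26a-2 had equal counts in 8 of 12 libraries, with totals of 2410 and 2406, and mir-30c-1 and mir-30c-2 in 7 of 12, with totals of 1406 and 1345. Their reads can be split or shared by the counting, so these 4 entries are uncertain as single genes. Of the 8 tested precursors, 0 were called, and mir-30a had the lowest adjusted p of them, 0.290 at E10.5 against E9.5 (edgeR log2 fold change -1.54, SE 0.78). With DESeq2 that entry was called higher at E9.5 than at E8.5 and lower at E10.5 than at E9.5, and with at least 10 counts required in every library it was called in the latter comparison. All entries were called at 16.9% with DESeq2 and 19.6% with that requirement in the latter comparison.

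Across the 12 libraries the members did not move as 2 blocks. Pearson's r of log2(CPM + 1) was 0.85 between miR-26b-5p and miR-30c-5p, 0.80 between miR-30a-5p and miR-30c-5p and 0.78 between miR-26a-5p and miR-30d-5p, but 0.30 within the miR-26 pair and 0.39 between the summed families. These values describe 12 libraries that share stages and depth, and the lowest values of miR-26b-5p and miR-30c-5p lie in the same library. Among 176 entries outside the families with a mean of at least 500 CPM, those most like summed miR-26 were miR-340-5p (r = 0.80), miR-296-3p (0.69), miR-342-3p (0.68), miR-483-3p (0.67) and miR-25-3p (0.66), with a median of 0.10 over all 176. Those most like summed miR-30 were mir-7a-2 (0.71), miR-181d-5p (0.70), let-7e-5p (0.69), miR-411-5p (0.68) and miR-200c-3p (0.68), with a median of 0.064. Spearman's rank correlations of the same entries were lower, at 0.42 to 0.64 for miR-26 and 0.46 to 0.66 for miR-30.

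Other miRNAs known from the endocrine pancreas were tested in the same fit. Of a list of 15 that included miR-375-3p and the miR-7, miR-29 and miR-182 groups, 12 were in the table and 11 were tested. The list was chosen with earlier results of these data known, so its counts are a description. At E9.5 against E8.5, 3 of 11 rose and 0 fell, beside 4.03% of all tested entries called higher. On the log2 scale of the edgeR fit miR-7a-5p rose by 1.81 (SE 0.27, adjusted p = 6.26e-05), miR-7b-5p by 5.40 (SE 0.71, adjusted p = 1.82e-05) and miR-24-3p by 1.98 (SE 0.37, adjusted p = 8.60e-04). At E10.5 against E9.5, 4 of 11 rose beside 1.58% of all entries: miR-375-3p, needed for islet cell mass, at 1.57 (SE 0.25, adjusted p = 7.80e-04) by edgeR, miR-7a-5p at 1.13 (SE 0.26, adjusted p = 0.0128), miR-182-5p at 0.82 (SE 0.21, adjusted p = 0.0221) and miR-183-5p at 1.11 (SE 0.24, adjusted p = 0.00852). The number of all entries called higher at E10.5 against E9.5 depended on the processing and on single libraries. It was 9 in this fit, 9 with library size alone, 15 with DESeq2, 1 with RLE and 0 with limma voom. It was 2 without mir-6236 and mir-6240, and 1 with only the libraries of both stages. With 1 library left out it was 1 to 15, the lowest without replicate 1 of E10.5. It was 2 without replicate 2 of E10.5 and 2 without replicate 2 of E8.5. In settings with fewer than 4 such entries, these 4 rises cannot all have been called. At E11.5 against E10.5 the edgeR test called 0 of 11, where it called 0 of all 571 entries higher. Between E8.5 and E11.5, 6 of 11 rose, beside 5.25% of all entries. By edgeR these were miR-375-3p at 1.51 (SE 0.25, adjusted p = 2.03e-04), miR-7a-5p at 2.54 (SE 0.28, adjusted p = 7.30e-07) and miR-7b-5p at 6.79 (SE 0.76, adjusted p = 8.62e-07). The others were miR-24-3p at 2.12 (SE 0.37, adjusted p = 3.82e-04), miR-182-5p at 1.10 (SE 0.21, adjusted p = 7.39e-04) and miR-183-5p at 1.28 (SE 0.24, adjusted p = 8.12e-04) in the same edgeR fit. In that comparison the 7 member arms had fitted changes of -0.95 to 0.50.

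Markers of other cell types were counted because the sorted cells could hold them. The epithelial list (the miR-200 group, 5 of 5 in the table) was present in every library and summed to 9026 to 11028 CPM at E8.5 and 16457 to 38948 CPM later. Hepatic miR-122-5p stood at 463 to 593 CPM at E8.5 and 38765 to 130754 CPM later. The muscle list (3 of 3) ranged from 5278 to 26855 CPM at E8.5 and E9.5 and from 266 to 3518 CPM afterwards. Endothelial markers (2 of 2) stood at 1821 to 2281 CPM at E8.5 and 32.5 to 429 CPM later, and mesenchymal markers (6 of 6) at 1655 to 13693 CPM without a clear order. Leukocyte (2 of 4), erythroid (2 of 4) and neural markers (3 of 3) reached 2655, 834 and 507 CPM at most, and leukocyte and neural markers were at 0 in some libraries. The leukocyte sum ranged from 10.7 to 2655 CPM at E9.5 and was at most 59.3 CPM at the other stages. Over the 12 libraries, which share stage and depth, Pearson's r of the log2 sums with summed miR-30 was 0.68 for the epithelial list, 0.50 for the hepatic, -0.55 for the neural, -0.49 for the muscle and -0.39 to 0.26 for the other 4. With summed miR-26 it ran from -0.46 for the muscle list to 0.37 for the epithelial list. The part of these cells in the levels of miR-26 and miR-30 was not tested.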

How the data were processed

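Small RNA of 12 libraries (4 stages, 3 each) was analysed from 1 deposited table of unnormalised counts of reads, which the authors made with the COMPSRA pipeline (STAR alignment to mm10, adapter and 4 random bases trimmed, reads of at least 17 bases). The random bases were not used to count molecules, so floors of 3 counts cover counting error only. Counts were tested with edgeR 4.0.16 in R 4.3.3 (glmQLFit, glmQLFTest, TMM on library totals) after filterByExpr (minimum count 10, total 15), with all stages in 1 fit and Benjamini-Hochberg adjustment over 571 entries. The SE was the log2 fold change divided by the square root of F. The script was tested on simulated data. DESeq2 1.42.0 (the tool used by the study), limma 3.58.1, other scalings, filters, leaving out each library and a replicate block were alternatives. Members and lists were chosen with earlier results of these data known. The 7 main 5p arms were named in full, 3p arms and precursors by range or where called or more abundant than their partner, 5 most alike entries per family, and list members where called. Count ratios of pairs of arms, the ranges of stage means under other scalings and the changes of the miR-30c 3p arms were added after the values were seen. Library names in the sample descriptions matched all 12 columns. Sequences came from RefSeq and host genes from GENCODE M21.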

Additional observations from a re-analysis of the deposited data

How the results depend on the processing

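No member was called with any single library left out, in any of the 4 comparisons (240 values each). Other alternatives called members as follows. At E9.5 against E8.5 the number called was 1 with RLE size factors (8.76% of all entries), 2 with DESeq2 (20.7%), 1 with counts under 10 set to 0 (6.32%), 1 with division of counts by the second level (7 members tested, 44.3%) and 1 without mir-6236 and mir-6240 (7.57%). At E10.5 against E9.5 it was 1 with at least 10 counts in every library (9 tested, 19.6%) and 1 with DESeq2 (16.9%). At E11.5 against E8.5 it was 2 with limma voom, miR-26a-5p (0.35, adjusted p = 0.0322) and miR-30d-5p (0.57, 0.0110), beside 25.7% of all entries, and at E11.5 against E10.5 it stayed 0 throughout. No pairing by replicate number was seen (correlation of deviations with the same number -0.134 to 0.125, other numbers -0.152 to 0.137). With 3 libraries per stage this check is weak and does not settle whether libraries were paired. With the replicate block 0 members were called in each comparison.

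The direction of several uncalled changes depended on the setting. At E9.5 against E8.5 miR-26a-5p had a log2 fold change of 0.36 with RLE, 0.36 with DESeq2, 0.31 with only the libraries of both stages, 0.11 without mir-6236 and mir-6240, and -0.40 to 0.014 with 1 library left out, the highest without replicate 2 of E9.5. For miR-30d-5p the values were 0.22, 0.22 and 0.18 in the first 3 of these settings, -0.028 without mir-6236 and mir-6240 and, with 1 library left out, -0.77 to 0.0053, again highest without that library. At E11.5 against E8.5, requiring at least 10 counts in every library gave -0.25 for miR-26a-5p, -0.12 for miR-26b-5p, -0.30 for miR-30a-5p, -0.18 for miR-30c-5p, -0.024 for miR-30d-5p and -0.23 for miR-30e-5p, and division by the second level gave -0.073, -0.092 and -0.013 for miR-26a-5p, miR-30a-5p and miR-30e-5p. The cause was not tested. Low depth at E9.5 limits all comparisons with that stage.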
